A study of Rattus norvegicus with 24 samples.

Results

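Myl3, Myl9 and Myl11 encode 3 light chains of the myosin motor, and their RNA was described on 24 2-colour arrays of rat heart ventricle. The genes were found as the probes annotated with these symbols, 1 probe each, which makes 3 of the 4126 named genes on the array. They were selected on values measured on these same arrays, among them their scores over the groups, so their levels and differences are given as a description and with no test. Each array set 1 ventricle sample against a common reference pool. All samples came from day 14 and carry the codes CHF, HYP or CON, with 6 right ventricle (RV) and 2 left ventricle (LV) samples of each. The series title names monocrotaline and hypertrophy in a compensated and a decompensated form. The labels do not spell the codes out, and CON is read as the control. Monocrotaline, a plant alkaloid, damages lung vessels and thereby raises the load on the right ventricle. For strain, age, dose and the handling of CON animals the sources used here give nothing.

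A myosin motor consists of heavy chains, which hold the ATPase and bind actin, and of an essential and a regulatory light chain on each heavy chain neck. Myl3 is the essential light chain of ventricular and slow skeletal muscle. Myl9 is a regulatory light chain of smooth muscle and of other contractile non-muscle cells, where its phosphorylation by myosin light chain kinase starts contraction. Myl11, formerly Mylpf, is the regulatory light chain of fast skeletal muscle. The fast skeletal form is not a standard component of the ventricular sarcomere, so a score of Myl11 here is the score of its probe and does not by itself show a fast light chain protein.

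Promoter sequences are shown for Myl3 and Myl11, the members for which a sequence was available. They run from 250 bases before to 50 bases after the annotated start, 5′ to 3′ on the + strand, and come from RefSeq on the GRCr8 build. Capitals mark matches to the motifs searched on both strands. In Myl3 these are an E-box (CANNTG) at -201 and a CArG box, the sequence bound by serum response factor, at -97. In Myl11 they are E-boxes at -155 and 3 bases after the start. Position 1 is the first base after the 250. The Myl11 window lies inside the annotated gene, chr1:191257432-191263046, so its start is not the outermost start of that gene. The table of promoters held none for Myl9.
Myl3, chr8:119616844-119617143 (+): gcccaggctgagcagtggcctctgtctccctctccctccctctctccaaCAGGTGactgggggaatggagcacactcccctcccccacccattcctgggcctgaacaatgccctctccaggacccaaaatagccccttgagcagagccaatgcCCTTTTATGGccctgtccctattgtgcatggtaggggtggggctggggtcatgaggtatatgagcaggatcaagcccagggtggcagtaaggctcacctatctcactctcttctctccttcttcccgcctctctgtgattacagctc
Myl11, chr1:191260039-191260338 (+): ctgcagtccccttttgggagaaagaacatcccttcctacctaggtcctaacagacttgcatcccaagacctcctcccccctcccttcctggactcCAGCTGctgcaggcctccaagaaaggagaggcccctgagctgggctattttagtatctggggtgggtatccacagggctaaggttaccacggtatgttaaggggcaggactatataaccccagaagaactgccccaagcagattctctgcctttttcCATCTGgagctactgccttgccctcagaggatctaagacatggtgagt
Of the 27457 promoters of this length, 1.64% held a CArG box and 71.6% an E-box. TATAAA, held by 14.3% of the promoters, and the MEF2 site, held by 3.37%, were in neither window. A match describes these letters and does not show that a factor binds there.

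The unit of every level below is the score that was deposited, less the median of its array. The scores of an array had a mean near 0 and an SD between 0.870 and 1.01, so differences are in array SDs and are not log2 fold changes. An array held 2162 to 3658 values, and Myl3 and Myl9 had a value on all 24 arrays and Myl11 on 21. Arrays of the same right ventricle group resembled each other little more than those of different groups, with a median correlation across probes of 0.285 against 0.260. The lowest correlation between arrays was -0.530, between CHF RV 14 and HYP RV 08. The sources used here do not give the dyes, so it is not settled whether a higher score means more RNA in the sample than in the pool. Results are therefore also given with the sign turned on 5 arrays, namely CHF RV 10, CHF RV 14, CHF LV 09, CON LV 21 and CON LV 22. In a pair of arrays correlating below -0.3, each was the array less like the RV arrays by its median correlation. This rule can turn an LV array because it differs from RV. A ventricle difference that is lost on turning is therefore partly lost by the rule, and the turning cannot decide whether the difference is real. The labels number the samples without saying whether each was a separate animal. The p-values below therefore cover the spread between these samples alone, and this spread may be technical. In whole ventricle tissue, fewer cells of a type and less RNA per cell cannot be told apart.

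**Figure D1:**
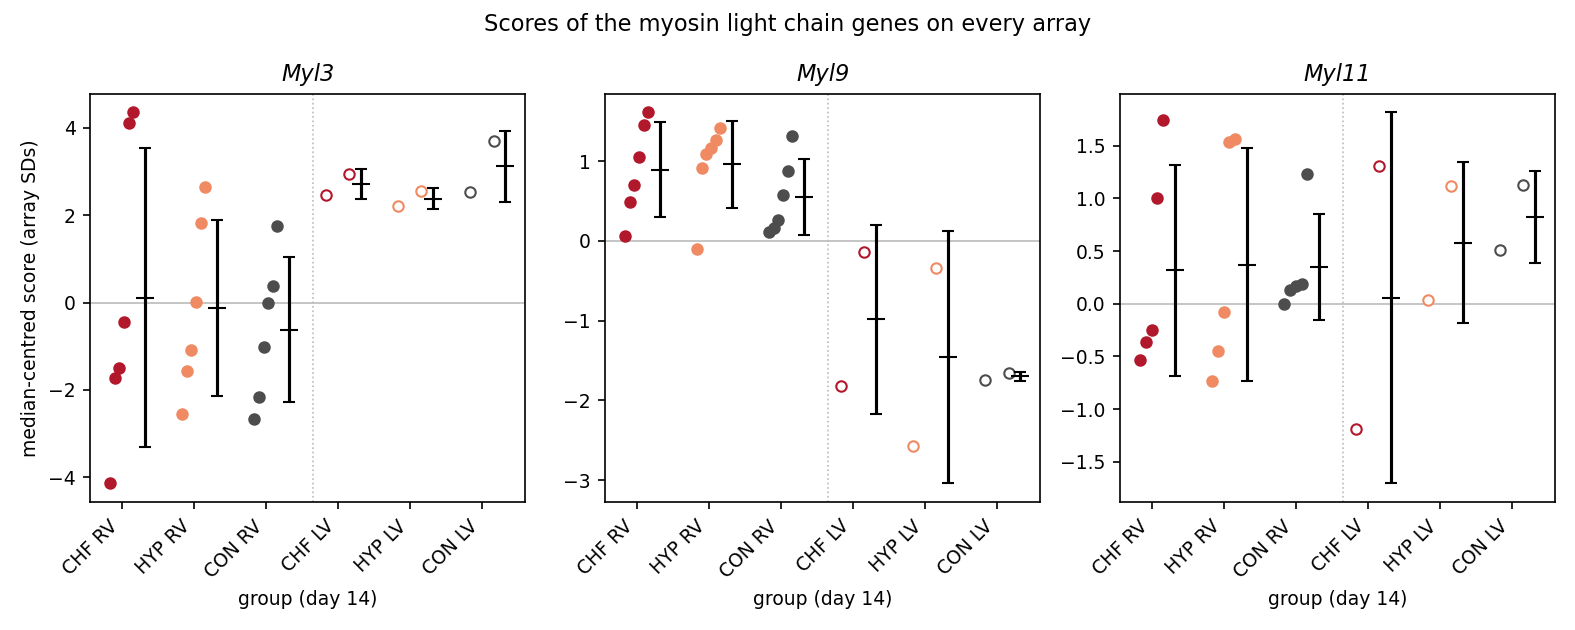
Median-centred score in array SDs (vertical axes) of Myl3, Myl9 and Myl11 on every array, by group, with right ventricle arrays filled and left ventricle arrays open, and the mean with its SD beside the points. All 18 right ventricle scores of Myl9 lie above its 6 left ventricle scores, while the right ventricle scores of Myl3 run from -4.142 to 4.365.

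The essential ventricular light chain gene Myl3 had the widest spread of the 3 genes in the right ventricle and a narrow one in the left. In CHF RV samples its score ran from -4.142 to 4.365 with a median of -0.969. In HYP RV samples it ran from -2.5445 to 2.655 with a median of -0.54225. In CON RV samples it ran from -2.669 to 1.746 with a median of -0.508. The 3 right ventricle groups overlapped throughout, and each held arrays well above and well below 0. In CHF the arrays 10 and 14 stood at 4.119 and 4.365 and array 12 at -4.142. Those are the highest and lowest scores of Myl3 on any array.

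Group means of Myl3 were close together next to that spread. They were 0.112 ± 3.42 in CHF RV, -0.121 ± 2.02 in HYP RV and -0.620 ± 1.65 in CON RV (SD, n = 6 each). CHF was above CON by 0.732, HYP was above CON by 0.499 and CHF was above HYP by 0.233. By size these differences ranked 561, 695 and 1846 among the 3199 features compared. Differences of the group medians had the other sign, at -0.461 for CHF less CON and -0.0343 for HYP less CON. Without CHF RV 10 and 14, a choice made after seeing the data, CHF less CON was -1.33. Leaving out 1 sample at a time moved it between -0.119 (without CHF RV 14; -0.0696 without CHF RV 10) and 1.58 (without CHF RV 12). When the sign was turned, all 6 CHF RV scores of Myl3 lay below 0, from -4.365 to -0.444, and CHF less CON was -2.10. No direction between the conditions can therefore be given for Myl3 in the right ventricle.

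The spread of Myl3 was unusual among the features of the array. Its SD within the right ventricle groups was 2.48 array SDs, against 0.909 for Myl11, 0.538 for Myl9 and a median of 0.550 over the 1656 features with a value on every right ventricle array. Of those features 1 had a larger SD than Myl3. After turning the sign, an alternative added after seeing the data, the SD of Myl3 was 1.80 and 6 features had a larger one. Measured as the share of probes on the same array with a lower score, Myl3 stood at 99.5% on CHF RV 14 and at 0.139% on CHF RV 12. On HYP RV 04 it stood at 98.7% and on HYP RV 08 at 1.86%. In CON RV it stood at 95.1% on array 20 and at 1.87% on array 21. So on the scores as deposited each condition held arrays with Myl3 near the top and near the bottom. In CHF this depended on the sign, since CHF RV 10 and 14 stood at 0.429% and 0.477% once turned, and no CHF RV array was then above 30.4%.

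**Figure D2:**
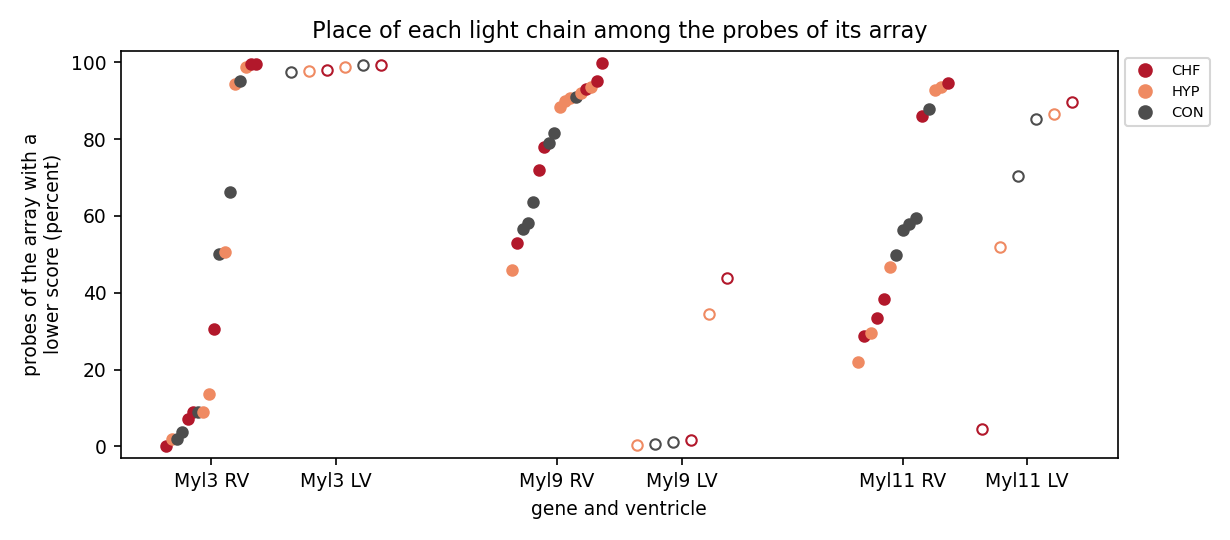
Share of the probes of an array with a lower score than the light chain gene, in percent (vertical axis), for each gene in the right (filled) and left (open) ventricle, 1 point per array. On the scores as deposited Myl3 lies near the top on all 6 left ventricle arrays and from the bottom to the top on the right ventricle arrays.

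In the left ventricle the Myl3 scores as deposited lay together and high. They were 2.467 and 2.95 in CHF LV, 2.207 and 2.555 in HYP LV, and 2.54 and 3.7 in CON LV. Their means were 2.71 ± 0.342 in CHF LV, 2.38 ± 0.246 in HYP LV and 3.12 ± 0.820 in CON LV (SD, n = 2 each). Each pair of left ventricle groups overlapped, and Myl3 stood above 97.6% to 99.3% of the probes of these 6 arrays. This too depended on the sign. With CHF LV 09, CON LV 21 and CON LV 22 turned, the LV scores ran from -3.7 to 2.95 with a mean of -0.166 ± 3.04 (SD, n = 6), and Myl3 stood at 1.88%, 0.703% and 2.37% on those 3 arrays.

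The mean of Myl3 was -0.210 ± 2.35 in the 18 RV samples, against 2.74 ± 0.529 in the 6 LV samples. The difference, RV less LV, was -2.95, which ranked 11 by size among the 2494 features compared. Of the 18 RV samples, 15 lay below all 6 LV samples and 2, CHF RV 10 and 14, lay above all of them. By condition the difference was -2.60 in CHF, -2.50 in HYP and -3.74 in CON, and only in CON did the ventricles not overlap. How many of all features do not overlap between 6 RV and 2 LV samples was not counted, so nothing is read from that. Turning the sign made the difference -0.987. In order of the mean, CON LV, CHF LV and HYP LV came before CHF RV, HYP RV and CON RV, and each group overlapped the next.

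The smooth muscle regulatory light chain gene Myl9 separated the ventricles, with all RV samples above all LV samples. In CHF RV samples its score ran from 0.063 to 1.616 with a median of 0.8765. In HYP RV samples it ran from -0.099 to 1.42 with a median of 1.12675. In CON RV samples it ran from 0.111 to 1.313 with a median of 0.42175. The 3 groups overlapped, and the array HYP RV 05 was the 1 right ventricle array below 0. In the left ventricle Myl9 stood at -0.145 and -1.82 in CHF, at -0.335 and -2.577 in HYP, and at -1.74 and -1.66 in CON. Both CON LV samples were low, while CHF LV and HYP LV each held 1 sample near 0 and 1 low sample.

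Means of Myl9 were 0.894 ± 0.592 in CHF RV, 0.959 ± 0.546 in HYP RV and 0.551 ± 0.471 in CON RV (SD, n = 6 each). CHF was above CON by 0.343 and HYP above CON by 0.408, and CHF less HYP was -0.0645. These ranked 1565, 913 and 2804 of 3199 by size and lay within the spread of the groups. Left ventricle means were -0.983 ± 1.18 in CHF, -1.46 ± 1.59 in HYP and -1.70 ± 0.0566 in CON (SD, n = 2 each). CHF LV was above CON LV by 0.718 and HYP LV above CON LV by 0.244, with overlapping samples in both.

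Over both ventricles Myl9 averaged 0.802 ± 0.538 in the 18 RV samples and -1.38 ± 0.944 in the 6 LV samples. RV less LV was 2.18, which ranked 23 of 2494 by size. The lowest RV score was -0.099 and the highest LV score -0.145, so the gap between the ventricles was small next to the difference of the means. The difference was 1.88 in CHF, 2.41 in HYP and 2.25 in CON. That the ventricles did not overlap in any of the 3 follows from the lack of overlap over all 18 and 6 samples. It adds nothing to it. In order of the mean, HYP RV, CHF RV and CON RV came before CHF LV, HYP LV and CON LV, and CON RV and CHF LV were the only neighbours that did not overlap.

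Of the 1617 features with a value on all 24 arrays, 12, or 0.742%, did not overlap between the ventricles. All 12 were named genes and higher in RV. Beside Myl9 and Tnni1, the troponin I of slow skeletal and fetal heart muscle, they included Ccn2, a secreted matrix-associated growth factor, Col5a2, a fibrillar collagen chain, Apoe, an apolipoprotein, and Npr2, a natriuretic peptide receptor. The others were Cyp7a1 at 1.12, Fga at 1.71, Gpx5 at 1.41, Hcn2 at 1.86, Msn at 1.04 and Phgdh at 1.10 for RV less LV. Those given with a role were picked after their values were seen, so no shared function is read from the list. RV less LV was 1.59 for Tnni1, 1.62 for Ccn2, 0.995 for Col5a2, 1.95 for Apoe and 0.836 for Npr2, and Myl9 had the largest difference of the 12.

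The separation of Myl9 was lost when the sign was turned, by a rule that used likeness to the RV arrays and so cannot decide on it. RV scores then ran from -0.700 to 1.616, and LV scores from -2.577 to 1.74, with both CON LV samples at the top of that range. RV less LV was 0.915. Of the 6 LV arrays, 3 were deposited with 2 decimals (CHF LV 15, CON LV 21 and CON LV 22) and all other arrays with 3, so file precision goes partly with the ventricle. Without those 3, RV less LV was 1.82 for Myl9, -2.62 for Myl3 and -0.477 for Myl11. That choice was made after seeing the data.

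The fast skeletal regulatory light chain gene Myl11 was alike in its means over the right ventricle groups. In CHF RV it stood at -0.253, 1.003, -0.368, 1.742 and -0.536 on the arrays 09, 10, 11, 14 and 15. In HYP RV it stood at -0.4475, -0.738, 1.537, 1.566 and -0.0745 on the arrays 01, 03, 04, 06 and 08. In CON RV it stood at -0.001, 0.1905, 0.1695, 0.128 and 1.234 on the arrays 17, 18, 19, 20 and 22. CHF and HYP each held some arrays above 1 and the rest below 0, while 4 of the 5 CON RV scores lay near 0. The arrays CHF RV 12, HYP RV 05 and CON RV 21 had no value. The groups overlapped.

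Means of Myl11 were 0.318 ± 1.003 in CHF RV, 0.369 ± 1.11 in HYP RV and 0.344 ± 0.503 in CON RV (SD, n = 5 each). CHF less CON was -0.0266, HYP less CON 0.0244 and CHF less HYP -0.0510, which ranked 3050, 3013 and 2887 of 3199 by size. After turning the sign all 5 CHF RV scores were below 0 and CHF less CON was -1.12. In the left ventricle Myl11 stood at 1.303 and -1.19 in CHF, at 1.119 and 0.038 in HYP, and at 0.51 and 1.13 in CON. The CHF LV pair held both the highest and the lowest left ventricle score. Over both ventricles Myl11 averaged 0.343 ± 0.842 in 15 RV samples and 0.485 ± 0.948 in 6 LV samples. RV less LV was -0.142, and it was 0.261 in CHF, -0.210 in HYP and -0.476 in CON, with overlap in each. With the sign turned Myl11 averaged -0.0225 in RV and -0.496 in LV, so RV less LV then had the opposite sign. In order of the mean, all 6 groups of Myl11 overlapped their neighbours.

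The conditions were also compared over all features by limma with Benjamini-Hochberg adjustment, as the background for these genes and for the other genes of the contractile apparatus. In RV, CHF against CON called 0.907% of 3199 features and HYP against CON 0.281%, while CHF against HYP called 0%. In LV, CHF against CON, HYP against CON and CHF against HYP each called 0% of 2494 features, although 22, 46 and 75 had an unadjusted p under 0.05. CHF against HYP in RV had 158 such features. Features without overlap between the groups were 1.45%, 0.759% and 0.234% in these RV comparisons, and 27.1%, 34.6% and 30.5% in the LV comparisons of 2 against 2 samples. None of the 3 light chain genes was without overlap between conditions in either ventricle. Nothing is read from the members' own place here, since they were selected on these arrays.

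RV against LV called 18.3% of 2494 features, 294 higher and 163 lower. On the deposited scores without centring it called 425 higher and 138 lower, where the median of all features was 0.197 in place of 0.0344. It called 0 with the sign turned, where 299 features had an unadjusted p under 0.05. In a fit of 2 groups by ventricle, chosen after seeing the data, it called 504 of 3433 features over all 24 arrays and 5 of 3278 without the 3 arrays with 2 decimals. Leaving out CHF LV 09 alone, deposited with 3 decimals, gave 140 in the fit of 6 groups. The number of calls between the ventricles thus moved with the sign, which was turned by likeness to the RV arrays, and with single LV arrays.

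Other light chains and the enzymes that act on them showed no call between conditions. Of the 26 genes on that list, 12 were measured, and 0 passed limma's test in any RV or LV comparison of conditions. Of all features 0.907% passed in CHF against CON and 0.281% in HYP against CON in RV. In CHF against HYP in RV and in the LV comparisons 0% passed, so 0 of 12 is near the share of all features. In CHF against CON in RV, 1 of the 12 had an unadjusted p under 0.05, namely Calm2, against 8.50% of all features. The median difference of the list was -0.379 there, against -0.0992 over all features. Myl2, the regulatory light chain of the ventricle and partner of Myl3, ran from -5.136 to 1.254 in CHF RV, from -1.9685 to 0.675 in HYP RV and from -2.467 to 0.668 in CON RV. CHF less CON was -0.477 ± 0.901 (SE, n = 6 and 6, limma adjusted p = 0.911). Myl4, the atrial essential light chain, was at -0.280 ± 0.303 for CHF less CON (adjusted p = 0.825). Myl12b, a regulatory light chain of non-muscle myosin, was at -0.610 ± 0.436 (adjusted p = 0.727).

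The regulators measured on the list were Mylk2, the skeletal muscle light chain kinase, Ppp1cb and Ppp1r12a, subunits of myosin phosphatase, Rock1, Rock2 and Rhoa of the pathway that inhibits that phosphatase, the kinase Dapk3, and the calmodulin genes Calm2 and Calm3. In RV, CHF less CON ran from -1.03 ± 0.603 for Rock1 (limma adjusted p = 0.663) to 0.226 ± 0.423 for Rock2 (adjusted p = 0.911). Calm3 was at 0.226 ± 0.365 (adjusted p = 0.891). HYP less CON ran from -0.962 ± 0.889 for Rhoa to 0.411 ± 0.269 for Mylk2.

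**Figure D3:**
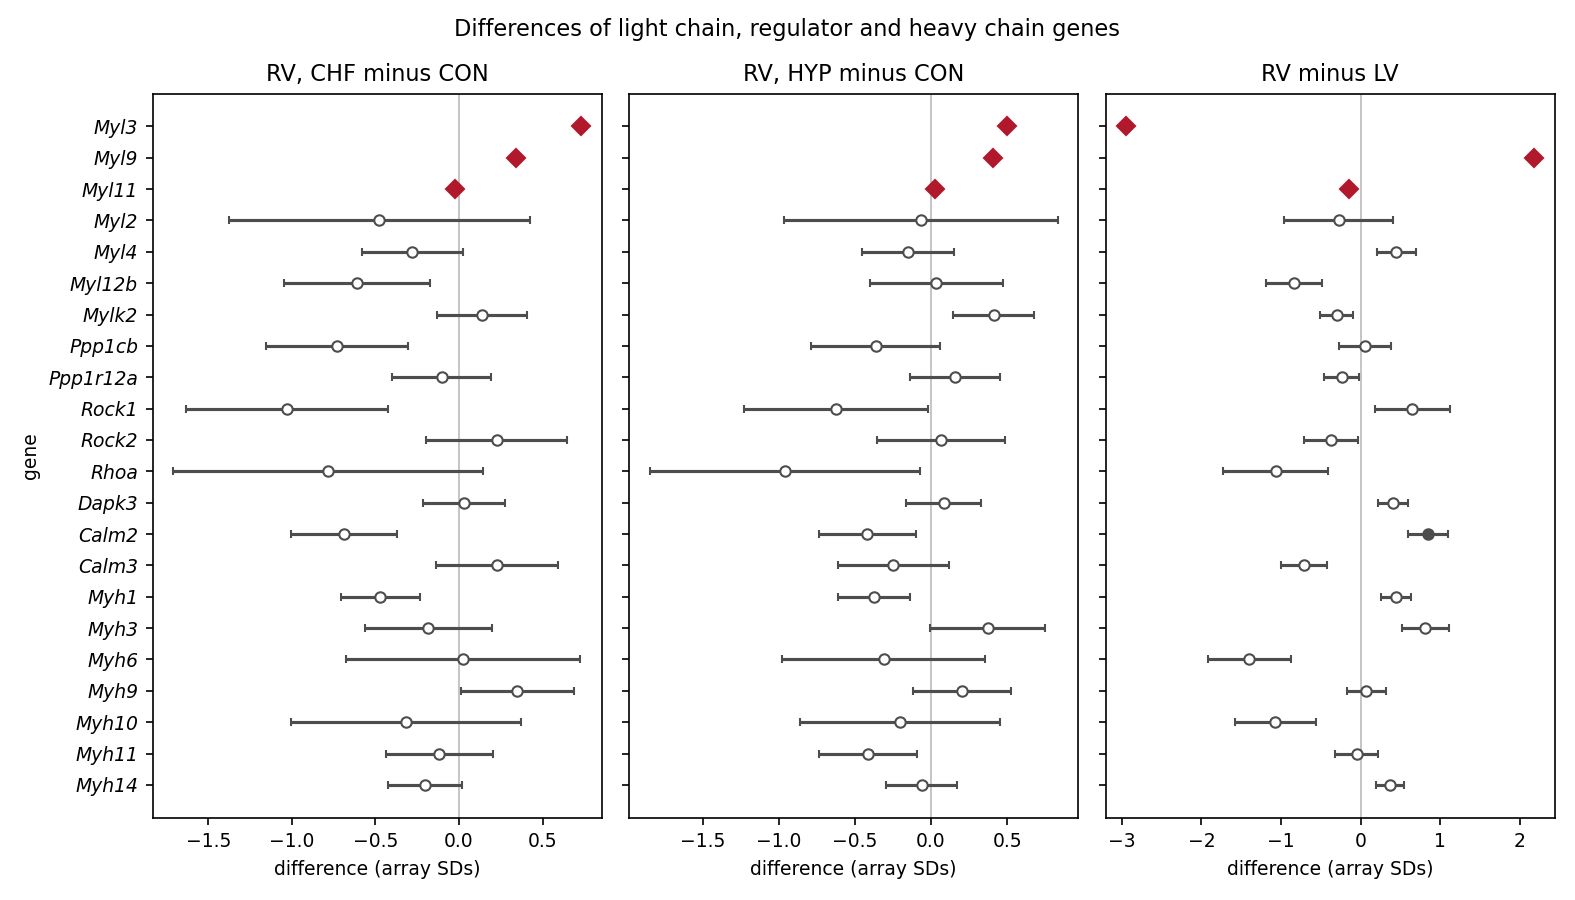
Difference in array SDs (horizontal axes) of Myl3, Myl9 and Myl11 (diamonds, no error or test) and of the measured light chain, regulator and heavy chain genes (circles with the limma SE, filled where the adjusted p was below 0.05) for CHF minus CON and HYP minus CON in RV and for RV minus LV. Calm2 in RV minus LV is the only filled circle, and Myl3 and Myl9 lie outside the range of the other genes in that panel.

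Between the ventricles 1 of the 12 passed, against 18.3% of all features. Calm2, a calmodulin gene, was higher in RV by 0.845 ± 0.249 (SE, n = 18 and 6, limma adjusted p = 0.0271). Myl2 was at -0.276 ± 0.687 (adjusted p = 0.791), so the partner chain of Myl3 was not called. Myl12b was at -0.837 ± 0.350 (adjusted p = 0.0902) and Myl4 at 0.445 ± 0.244 (adjusted p = 0.193). The median of the list was -0.258, against 0.0344 over all features.

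The measured heavy chain genes were not called in any comparison by limma. Of 12 on the list, 7 were measured, namely Myh1, Myh3, Myh6, Myh9, Myh10, Myh11 and Myh14. Myh7, Myh2 and Myh4 were on the list but not measured, so nothing is known of them here. Calls over all features were 0.907% in CHF against CON and 0.281% in HYP against CON in RV, and 18.3% in RV against LV. In CHF against CON in RV, 0 of the 7 had an unadjusted p under 0.05, against 8.50% of all features. In RV against LV 5 did, against 36.1% of all features. Myh6, the fast cardiac heavy chain, was at 0.0225 ± 0.699 for CHF less CON (adjusted p = 0.997) and at -1.40 ± 0.521 for RV less LV (adjusted p = 0.0652). Myh11, the smooth muscle heavy chain to which Myl9 binds, was at -0.117 ± 0.322 (adjusted p = 0.934) and at -0.0511 ± 0.268 (adjusted p = 0.902), but its 2 probes disagreed, at -0.610 and 0.552 for CHF less CON and at 0.276 and -0.465 for RV less LV. Myh1, a fast skeletal heavy chain, was at -0.470 ± 0.236 (adjusted p = 0.602) and at 0.447 ± 0.189 (adjusted p = 0.0938).

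In RV, 3 of the 16 measured sarcomere genes (Acta1, Tpm3 and Capn3) were called in CHF against CON and in HYP against CON. Of all features 0.907% and 0.281% were called there. In CHF against HYP 0 were called, against 0% of all features, and 4 had an unadjusted p under 0.05, against 4.94%. Together the light chain, heavy chain, sarcomere and fast skeletal lists held 43 measured genes of 87. In CHF against CON 4 of the 42 tested were called, all higher in CHF, against 0.907% of all features. Acta1, the skeletal alpha-actin, averaged 1.69 ± 0.556 in CHF RV and -2.66 ± 1.37 in CON RV (SD, n = 6 each), a difference of 4.35 ± 0.573 (SE, limma adjusted p = 0.000157), and the groups did not overlap. The other 3 were Tpm3, a slow muscle tropomyosin, at 2.91 ± 0.348, Capn3, a muscle calpain bound to titin, at 2.31 ± 0.294, and Pvalb, the calcium buffer of fast fibres, at 1.18 ± 0.243 (SE, limma adjusted p = 0.000122, 0.000149 and 0.0195). In HYP against CON 3 of 42 were called, against 0.281% of all features, namely Acta1 at 3.11 ± 0.573, Tpm3 at 1.91 ± 0.348 and Capn3 at 1.74 ± 0.294 (adjusted p = 0.0174, 0.0174 and 0.0121). All 3 lost that call with the HYP and CON groups fitted alone (adjusted p = 0.148, 0.148 and 0.142), and Acta1 and Tpm3 lost it without HYP RV 01, 04 or 06 or CON RV 18, 19 or 22, Acta1 also without CON RV 17. With the sign turned they lost it as well (adjusted p = 0.292, 0.136 and 0.136) at the same differences, since no HYP or CON RV array was turned and the fit takes its spread from the turned CHF arrays too. In CHF less CON Acta1 was then at 3.31 (adjusted p = 0.0849) and Pvalb at 0.608 (adjusted p = 0.523). Pvalb also lost its call without CHF RV 09 or 10 or CON RV 17 or 19. The Acta1 score did not follow that of Myl3 over the RV arrays, with r = 0.215 (n = 18).

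The fast skeletal list, the programme Myl11 belongs to, held 14 measured genes of 22. In RV 13 of them were tested. Pvalb was the 1 call in CHF against CON, against 0.907% of all features. HYP against CON had none, against 0.281%, and 1 gene had an unadjusted p under 0.05, against 4.10% of all features. Tnni2, the fast troponin I, was at 0.777 ± 0.256 for CHF less CON (SE, limma adjusted p = 0.281), and Tnnc2, the fast troponin C, was at -0.753 ± 0.324 (adjusted p = 0.525). The median of the list was -0.330, against -0.0992 over all features. Over the RV arrays Myl11 correlated with Tnni2 at 0.374 (n = 15), with Pvalb at 0.0796 (n = 15) and with Tnnc2 at -0.411 (n = 14). With the cardiomyocyte genes Myl2, Tnni3 and Tnnt2 it correlated more highly, at 0.661, 0.581 and 0.503 (n = 15 each). This was not particular to cardiomyocyte genes, since Gapdh was at 0.901 and the smooth muscle gene Myh11 at 0.527. The smooth muscle genes Acta2 and Tagln were at 0.0463 and -0.0573 (n = 15 each). This is a description of arrays that share the reference pool.

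Between the ventricles 7 of the 39 tested genes of these lists passed, against 18.3% of all features. Calm2, Tpm3, Capn3 and Tnni1 were higher in RV, and Ckm, Pygm and Ttn were lower. Tnni1 averaged 0.621 ± 0.416 in RV samples and -0.968 ± 0.222 in LV samples (SD, n = 18 and 6), a difference of 1.59 ± 0.196 (SE, limma adjusted p = 6.33e-05). Ckm, the muscle creatine kinase, was lower in RV with a difference of -2.14 ± 0.488 (adjusted p = 0.00752), and Pygm, the muscle glycogen phosphorylase, with -1.23 ± 0.262 (adjusted p = 0.00560). Ttn, which encodes titin, was at -1.17 ± 0.285 (adjusted p = 0.0114), but its 6 probes ran from -2.66 to 0.0834. Turning the sign left 0 of these genes called.

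Cell type markers were set beside the ventricle differences of Myl3 and Myl9. Of all features 18.3% were called between the ventricles. Of 4 erythrocyte genes tested all 4 were called, lower in RV, and Hba-a1, a haemoglobin chain, differed by -6.29 ± 1.18 (SE, limma adjusted p = 0.00250). The summed score of 3 of them ran from -19.9 to -2.22 in RV and from -19.7 to 16.3 in LV. The lowest LV sum was that of HYP LV 05, where Myl3 was 2.207 and Myl9 -2.577. Of 11 cardiomyocyte genes tested other than the light chain members, 3 were called, all lower in RV (Ttn, Cox6a2 and Casq2). Only 1 of the 11 had a difference above 0, against 52.0% of all features. The median of these genes was -0.872, against 0.0344 over all features. The sum of 8 ran from -17.0 to 9.74 in RV and from 3.14 to 9.21 in LV. Of 10 smooth muscle and pericyte genes tested 1, Acta2, was called, higher in RV by 0.583 ± 0.196 (adjusted p = 0.0436). Its 3 probes gave 0.677, 0.00700 and 1.07. Of the 10 genes 4 had a difference above 0, and the list's median was -0.266. The sum of 6 of the list's genes ran from -4.68 to 4.21 in RV and from -3.29 to 0.885 in LV. Of 7 fibroblast genes tested Lum was called higher and Sparc lower in RV. Of 4 macrophage and monocyte genes 1, C1qb, was called, higher in RV. C1qb was also the only 1 of these 4 with a difference above 0, and the list's median was -0.2997. Of 3 endothelial and 3 atrial genes 0 were called. Scores against a pool have no true zero, so no marker could be called absent. The part of these cell types in the light chain differences was not tested.

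The right ventricle scores of Myl3 and Myl11 moved together across arrays, and Myl9 moved with neither. Myl3 and Myl11 correlated at Pearson r = 0.768 and Spearman rho = 0.664 over 15 RV arrays. Without the 2 arrays farthest from the median, CHF RV 14 and 10, r was 0.690, over deviations from the group means it was 0.788, and with the sign turned 0.808. Myl3 and Myl9 correlated at -0.0928 (n = 18), and Myl9 and Myl11 at -0.154 (n = 15). With the sign turned these were 0.433 and 0.437. Myl3 and its partner Myl2 correlated at r = 0.851 and rho = 0.957 (n = 18).

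**Figure D4:**
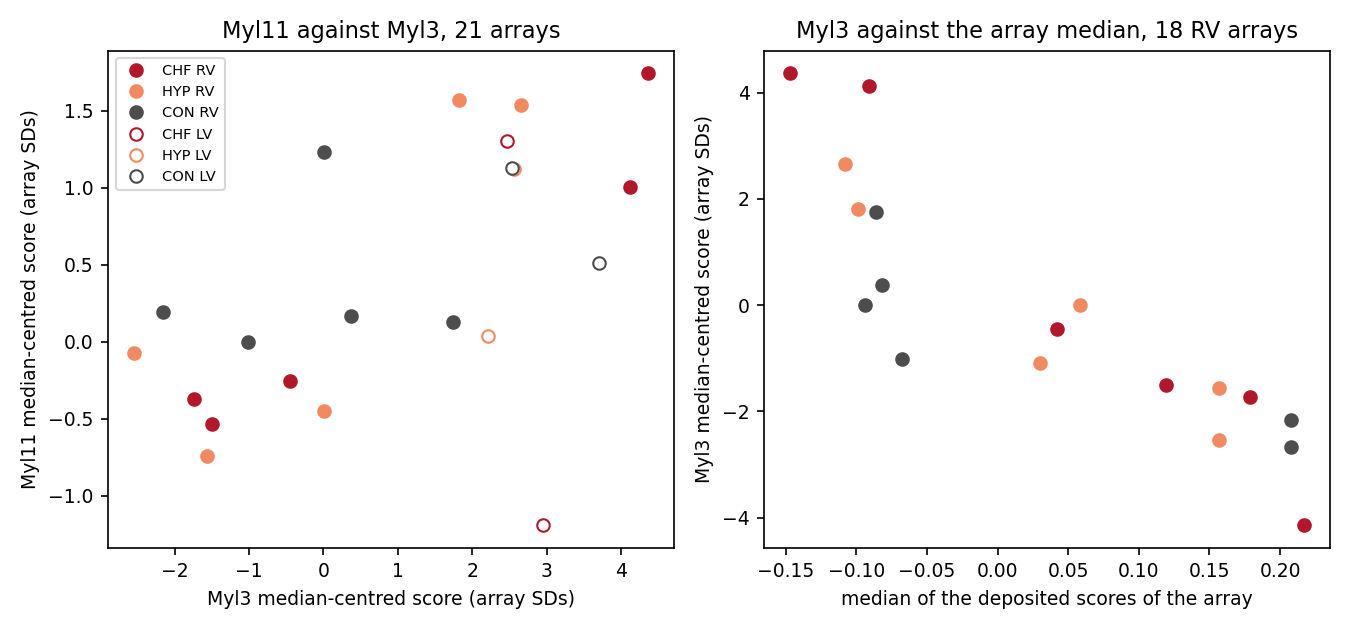
Left, Myl11 against Myl3 in array SDs on the 21 arrays with both values, coloured by condition with LV arrays open; right, Myl3 against the median of the deposited scores of the array on the 18 RV arrays. The right panel falls from the upper left to the lower right, at r = -0.865.

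These scores also followed a property of the whole array. Over the RV arrays the median of the deposited scores correlated with Myl3 at r = -0.865 and rho = -0.932 (n = 18), with Myl11 at r = -0.752 and rho = -0.782 (n = 15) and with Myl9 at r = 0.175 and rho = 0.129 (n = 18). The median correlation of an array with the other RV arrays went with Myl3 at -0.824, with Myl11 at -0.855 and with Myl9 at 0.0812. Of the variance of the right ventricle arrays around their group means, 1 principal component held 44.0%. The arrays share the reference pool, and the part of these array properties in the scores was not tested.

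Genes whose right ventricle pattern was most like that of each light chain were ranked by Pearson correlation over at least 12 shared arrays. For Myl3 they were C1galt1 at 0.966, Gapdh at 0.959, Rab7a at 0.956, Hap1 at 0.948 and Hsp90ab1 at 0.943 (n = 17 or 18). For Myl11 they were Gad2 at 0.904, Gapdh at 0.901, Muc3 at 0.899, Gpx3 at 0.898 and Clcn3 at 0.893 (n = 13 or 15). For Myl9 they were Pou1f1 at 0.688, Lrpap1 at 0.687, Cp at 0.659, Gtf2f2 at 0.630 and Top2b at 0.569 (n = 13 to 18). These 5 were at 0.264, 0.450, 0.314, 0.580 and 0.338 when the sign was turned. The 5 of Myl3 then lay between 0.924 and 0.934, and those of Myl11 between 0.677 and 0.898. Correlations above 0.8 were found for 194 of 2527 genes (7.68%) with Myl3 and for 109 of 2424 (4.50%) with Myl11, and for 0 of 2527 with Myl9. High likeness was thus common for Myl3 and Myl11, and Gapdh, a glycolytic enzyme, stood on both lists.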

How the data were processed

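The authors deposited 1 score per probe and array of a sample against a reference pool. For log base, scanner, dyes, background correction, normalization and filters, nothing is given in the sources used here. The scores of each array were centred on its median. Probes of a gene were averaged (Myl3, Myl9 and Myl11 have 1 each), and 4278 of 4803 probes had 1 symbol in the platform annotation, 4 several and 521 none. The planned tests had assumed log ratios and were kept for the scores.

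All features were tested with the lmFit, contrasts.fit and eBayes functions of limma 3.58.1 (R 4.3.3) at a Benjamini-Hochberg adjusted p below 0.05. RV comparisons used 18 arrays in 3 groups, and LV and RV against LV comparisons used 24 arrays in 6 groups, so the LV pairs were assumed to vary like the RV groups. A feature needed 2 arrays in each group. The fits were also run on simulated data whose features were drawn independently. In these arrays many features vary together, so that run does not test how far the p-values hold here.

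The members and the gene lists were chosen with earlier results of these data known. Named were the members, every measured light chain, regulator and heavy chain gene, sarcomere and fast skeletal genes called in any comparison or with the 3 smallest p of their list in RV CHF or HYP against CON, and the 5 genes most like each member. Some of these are given by counts and in the plot only. Alternatives were the centring, scaling, sign, filter, array weights, replicate block and leaving out each sample. Arrays were turned where, in a pair correlating below -0.3, they had the lower median correlation with the RV arrays. With 1 probe per member, no probe-wise alternative was needed.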

Additional observations from a re-analysis of the deposited data

Results flagged for a closer look

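A sample far from the others of its group was looked for in 36 groups of 12 genes, where chance marks about 1 in 20 groups. Myl9 stood at -0.099 on HYP RV 05, far below the other 5 HYP RV samples, which ran from 0.9105 to 1.42. Myl11 stood at 1.234 on CON RV 22, far above the other 4 CON RV samples, which ran from -0.001 to 0.1905. Of 87 pairs of gene and comparison tested for a difference of the condition effect between ventricles, 0 passed.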

How the results depend on the processing

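Turning the sign of 5 arrays left 9 features called in CHF against CON and 1 in HYP against CON in RV, gave 1 in CHF against HYP, 96 in LV HYP against CON, and 0 in RV against LV. Contractile list genes, whose counts under alternatives were added after seeing the data, numbered 2 (RV CHF against CON), 0 (RV HYP against CON), 6 (LV HYP against CON) and 0 (RV against LV). Myl3 became -2.10 (RV CHF less CON), -2.60 (RV CHF less HYP), 3.36 (LV CHF less CON), 5.50 (LV HYP less CON) and -2.14 (LV CHF less HYP), each of the opposite sign to the deposited scores, and RV less LV was -0.987. Myl9 became -2.54 and -3.16 (LV CHF and HYP less CON, both of the opposite sign) and 0.915 (RV less LV, the same sign). Myl11 became -1.12 and -1.15 (RV CHF less CON and HYP, the same sign) and 1.40 (LV HYP less CON, the opposite sign). Its turned means were -0.0225 in RV and -0.496 in LV, so RV less LV took the opposite sign. In CHF LV and HYP LV they were -1.25 and 0.579, so LV CHF less HYP kept its sign. Tpm3 in RV less LV changed sign to -0.0155. The direction was not settled, and the cause of these shifts was not tested.

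The 2 groups alone gave 0 features and 0 list genes in HYP against CON in RV. Array weights gave 1 feature in CHF against HYP, and 1080 features and 13 list genes in RV against LV. A fit of 2 groups by ventricle, chosen after seeing the data, called 504 features and 5 list genes in RV against LV, and without the 3 LV arrays with 2 decimals 5 features and 1 list gene.

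Pairing by the numbers shared between ventricles was not established: deviations of same-numbered samples correlated at 0.285, 0.416 and 0.337 for 3 numbers and at -0.297, 0.0227 and -0.0455 for the others, where -0.297 involves CHF LV 09, whose sign is in doubt. The replicate block gave 753 (random) and 998 (fixed, 12 samples) features and 13 and 12 list genes in RV against LV, with Myl3 at -3.95, Myl9 at 1.99 and Myl11 at -0.664.

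Leaving out 1 sample gave 16 to 38 features in CHF against CON, 3 to 9 in HYP against CON and 0 to 1 in CHF against HYP in RV, 0 to 4 in HYP against CON and 0 to 5 in CHF against HYP in LV, and 140 to 683 in RV against LV. CHF against CON was at 17 without CHF RV 10 and at 16 without CON RV 19, and HYP against CON at 3 or 4 without HYP RV 01, 04 or 06 or CON RV 17, 18, 19 or 22. The 1 call in CHF against HYP came without CHF RV 11, and the 4 and 5 in LV without HYP LV 03. The count in RV against LV was 140 without CHF LV 09, 153 without CON LV 22, 160 without CON LV 21, 264 without HYP LV 03 and 269 without CHF LV 15. List genes ran from 1 to 3 in RV HYP against CON, where Acta1 and Tpm3 lost the call without HYP RV 01, 04 or 06 or CON RV 18, 19 or 22 (Acta1 also without CON RV 17). In RV against LV they ran from 4 to 10, with 4 without HYP LV 03, CON LV 21 or CON LV 22. There Calm2 lost the call without HYP LV 03, CHF LV 09, CON LV 21 or CON LV 22, Capn3 without 10 and Tpm3 without 11 of the 24 samples. Their values ran from 0.475 to 1.14 and from 0.587 to 1.18, lowest without CHF LV 15 and highest without CHF LV 09. A lone LV sample was assumed to vary like the other groups. RV less LV stayed between -3.23 and -2.66 for Myl3 and between 1.81 and 2.55 for Myl9, while Myl11 ran from -0.557 to 0.274. No measure of signal against background came with the scores, so precision rests on how many arrays there are.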
